A study of Mus musculus with 9 samples.

Results

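The proteasome genes of mouse bone-marrow-derived macrophages are described here, from the subunits of the proteolytic core to the factors that assemble, cap, activate or inhibit it. They are the protein-coding genes whose symbol starts with Psm, a letter from a to g and a digit, together with Pomp, and 50 of the 21434 genes found in both deposited tables met that rule. All 50 passed the filter on low values. Psmc3ip met the rule by its symbol alone and is not a proteasome gene, and Psma8 is the alpha subunit of the testis. Psma8 had 9.22 to 43.3 normalized reads in a library and Psmc3ip 18.3 to 44.9. The processed pseudogene Psmb6-ps2 fell outside the rule.

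The macrophages were grown for 6 days from the marrow of C57BL/6 mice aged 8 weeks in medium with 10 ng/ml M-CSF, the growth factor that drives macrophage differentiation. One group was kept for 6 h with 500 ng/ml lipopolysaccharide (LPS), the bacterial cell wall component sensed by Toll-like receptor 4, together with 50 µM NCT503, an inhibitor of the serine synthesis enzyme PHGDH. The next group had LPS alone at the same dose and time, and the control group had medium alone for the same time. The labels name no vehicle for the groups without NCT503, no other inhibitor and no Phgdh mutant, so an effect of the compound on PHGDH and any other effect of it cannot be told apart. Each group has 3 RNA-seq libraries, and the labels do not say whether they came from separate animals or cultures, so p-values reflect only the variation among these 9 libraries, which may be technical.

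The proteasome degrades proteins that carry ubiquitin chains. Its barrel-shaped 20S core has outer alpha rings and inner beta rings, and the beta subunits Psmb5, Psmb6 and Psmb7 hold the active sites. In cells that receive interferon or inflammatory signals, Psmb8, Psmb9 and Psmb10 take the places of Psmb5, Psmb6 and Psmb7 in newly built cores, which are then called immunoproteasomes and produce peptides for presentation on MHC class I. The 19S cap recognises ubiquitin, unfolds the substrate with its ATPase ring and feeds it into the core, while PA28, built from Psme1 and Psme2, is an alternative cap that needs no ATP.

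Library totals over the shared genes were 20295862 to 23599685 reads. The macrophage markers (8 of 8 found, among them Adgre1, Cd68, Csf1r and Lyz2) summed to 204174 to 265680 normalized reads in LPS with NCT503, 423359 to 473403 in LPS and 270951 to 347154 in control libraries. The 8 stromal markers summed to 16136 to 41341, 16233 to 35137 and 5542 to 25425 in the same order of groups, and the neutrophil list (4 of 5 found, Ly6g at 0) to 159 to 320, 922 to 2351 and 1624 to 2472. The T and natural killer cell list summed to 3145 to 5159, 1901 to 2376 and 3811 to 6406, and the mast cell and basophil list to 73.4 to 97.8, 521 to 675 and 403 to 593. Of the 6 T and natural killer cell genes 1 was called higher and 3 lower in LPS with NCT503 against LPS, though their sum was higher. Of the 8 stromal genes 5 were called higher with LPS, and 0 were called higher and 3 lower with NCT503 added. A sum therefore need not follow most genes of its list. Among the 8 macrophage genes 4 were called higher and 0 lower with LPS, and 0 higher and 4 lower with NCT503 added. The neutrophil and the mast cell and basophil lists each had 0 genes called higher and 4 lower with NCT503 added. Shares over all genes were 20.8% higher and 21.6% lower with LPS, and 16.4% and 15.5% with NCT503 added. For LPS with NCT503 against control they were 20.7% and 19.7%. The dendritic cell list summed to 68.7 to 112 in LPS with NCT503, 48.4 to 82.6 in LPS and 7.21 to 29.4 in control libraries, and 2 of its 4 genes were called higher than control in either LPS group. The part of these other cells in the results was not tested, and fewer cells of a type and less RNA per cell cannot be told apart in bulk RNA. The second library of LPS with NCT503 stood apart from the other 2 of its group, with correlations of 0.965 and 0.970 against 0.991 between those 2. Without it 8 further members were called in LPS with NCT503 against LPS, higher for Psmd1 and Psme4 and lower for Psma3, Psmb1, Psmc3, Psmd7, Psmf1 and Psmg4 (adjusted p = 0.0177 to 0.0474, limma), and 2 against control, higher for Psme4 and lower for Psmg1 (adjusted p = 0.00319 and 0.00338).

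Promoters are shown for the 5 catalytic subunits with an entry in the RefSeq promoter table (GRCm38.p6) and for Psmc6, Psmd8 and Psmd11, the members that rose with NCT503. Each sequence is the 250 bases before RefSeq's start of the gene, read on the gene's own strand, and capitals mark any match on either strand to one of 5 motifs. The motifs were TGACNNNGC (antioxidant response element, the kind bound by Nfe2l1 and Nfe2l2), GAAANNGAA (interferon-stimulated response element), TTCNNNGAA (gamma-activated site), GGNNTTNCC (kappa B site) and the CCAAT box, whose name spells its letters. In Psmb5 an antioxidant response element lies directly beside a kappa B match, and they are capitalised as 1 run.
Psmb8, chr17:34197945-34198194, plus strand: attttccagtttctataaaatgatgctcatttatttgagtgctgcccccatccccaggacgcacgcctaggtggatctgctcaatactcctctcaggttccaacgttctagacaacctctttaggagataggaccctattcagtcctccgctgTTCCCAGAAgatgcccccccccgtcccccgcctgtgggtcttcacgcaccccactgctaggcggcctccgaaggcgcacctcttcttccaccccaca
Psmb9, chr17:34187331-34187580, minus strand: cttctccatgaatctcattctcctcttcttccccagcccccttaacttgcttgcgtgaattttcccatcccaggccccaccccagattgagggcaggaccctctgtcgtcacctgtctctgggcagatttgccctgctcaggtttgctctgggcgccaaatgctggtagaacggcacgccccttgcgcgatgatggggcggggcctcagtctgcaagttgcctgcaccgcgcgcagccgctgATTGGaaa
Psmb10, chr8:105938393-105938642, minus strand: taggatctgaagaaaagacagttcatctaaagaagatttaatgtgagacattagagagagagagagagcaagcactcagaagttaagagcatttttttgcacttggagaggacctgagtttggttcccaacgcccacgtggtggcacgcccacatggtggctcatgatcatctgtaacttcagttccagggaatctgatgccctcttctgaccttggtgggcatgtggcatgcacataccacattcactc
Psmb5, chr14:54617996-54618245, minus strand: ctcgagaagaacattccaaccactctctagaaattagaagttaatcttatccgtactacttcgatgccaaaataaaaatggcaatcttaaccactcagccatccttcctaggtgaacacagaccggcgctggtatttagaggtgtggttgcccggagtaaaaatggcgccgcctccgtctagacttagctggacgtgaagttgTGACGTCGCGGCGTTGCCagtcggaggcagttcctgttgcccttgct
Psmb6, chr11:70525107-70525356, plus strand: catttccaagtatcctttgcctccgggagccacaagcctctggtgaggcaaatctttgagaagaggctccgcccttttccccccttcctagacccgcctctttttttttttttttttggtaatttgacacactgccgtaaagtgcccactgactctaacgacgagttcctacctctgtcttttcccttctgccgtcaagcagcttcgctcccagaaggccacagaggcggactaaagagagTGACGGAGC
Psmc6, chr14:45329574-45329823, plus strand: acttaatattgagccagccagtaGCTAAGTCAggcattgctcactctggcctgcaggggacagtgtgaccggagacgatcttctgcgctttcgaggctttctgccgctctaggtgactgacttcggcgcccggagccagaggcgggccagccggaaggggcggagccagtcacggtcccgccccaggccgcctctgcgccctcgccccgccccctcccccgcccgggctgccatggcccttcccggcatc
Psmd8, chr7:29180674-29180923, minus strand: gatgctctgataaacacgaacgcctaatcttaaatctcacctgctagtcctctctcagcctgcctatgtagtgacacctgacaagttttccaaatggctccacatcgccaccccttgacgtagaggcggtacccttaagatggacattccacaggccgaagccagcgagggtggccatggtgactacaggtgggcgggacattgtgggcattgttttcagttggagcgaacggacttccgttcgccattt
Psmd11, chr11:80428365-80428614, plus strand: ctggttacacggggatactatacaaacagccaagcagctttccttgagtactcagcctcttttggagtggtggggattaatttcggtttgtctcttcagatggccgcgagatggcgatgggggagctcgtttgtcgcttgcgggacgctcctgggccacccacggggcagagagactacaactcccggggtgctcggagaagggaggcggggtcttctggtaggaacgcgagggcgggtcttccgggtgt

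Of the 50 members 42 had a promoter in that table. An antioxidant response element was found in 5 of the 42 (11.9%), against 10.1% of all 27025 promoters of the same length. In the windows shown it lies at -47 to -39 of Psmb5, at -9 to -1 of Psmb6 and at -227 to -219 of Psmc6, counted from the first base upstream of the start as -1. RefSeq's start of Psmb8 and Psmb9 lies 474 and 434 bases inside the deposited gene span. The other motifs were found in 3 of 42 (interferon-stimulated response element, 7.14% against 7.16% of all promoters), 2 of 42 (gamma-activated site, 4.76% against 7.18%), 4 of 42 (kappa B site, 9.52% against 13.3%) and 14 of 42 (CCAAT box, 33.3% against 34.5%). The gamma-activated site at -97 to -89 of Psmb8 and the CCAAT box at -8 to -4 of Psmb9 are the only such matches in the 3 immunoproteasome windows. The CCAAT box was present in 5 of 7 alpha ring promoters. Among the windows not shown, RefSeq's start lay much further from the deposited 5' end for Psmd9 (58777 bases), Psmd5 (4006) and Psmf1 (2876). Of the matches counted, the Psmd9 window holds an antioxidant and an interferon-stimulated response element, and that of Psmf1 a kappa B site. A match says only that these letters occur, and each share of members lay close to or below that of all promoters.

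Most proteasome genes rose with LPS, and with NCT503 added most core genes fell while most cap genes were not called. In LPS against control libraries 35 of 50 members were higher and 2 were lower (limma on log2 normalized reads, adjusted p under 0.05), where 20.8% of the 19608 genes tested were higher and 21.6% lower. The median log2 fold change was 0.76 over the members and -0.03 over all genes. In LPS with NCT503 against LPS 3 members were higher and 24 lower, where 16.4% of 20016 genes were higher and 15.5% lower, and the medians were -0.45 over the members and 0.08 over all genes. In LPS with NCT503 against control 21 members were higher and 3 lower, where 20.7% of 19930 genes were higher and 19.7% lower, with medians of 0.32 and 0.05. These comparisons share libraries pairwise, so their values are set side by side and are not independent. By the authors' deposited table, higher members numbered 35 and lower ones 2 with LPS (adjusted p under 0.05, passed by 33.9% of its 23001 genes), against 3 higher and 26 lower with NCT503 (passed by 27.4% of 22620 genes).

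**Figure D1:**
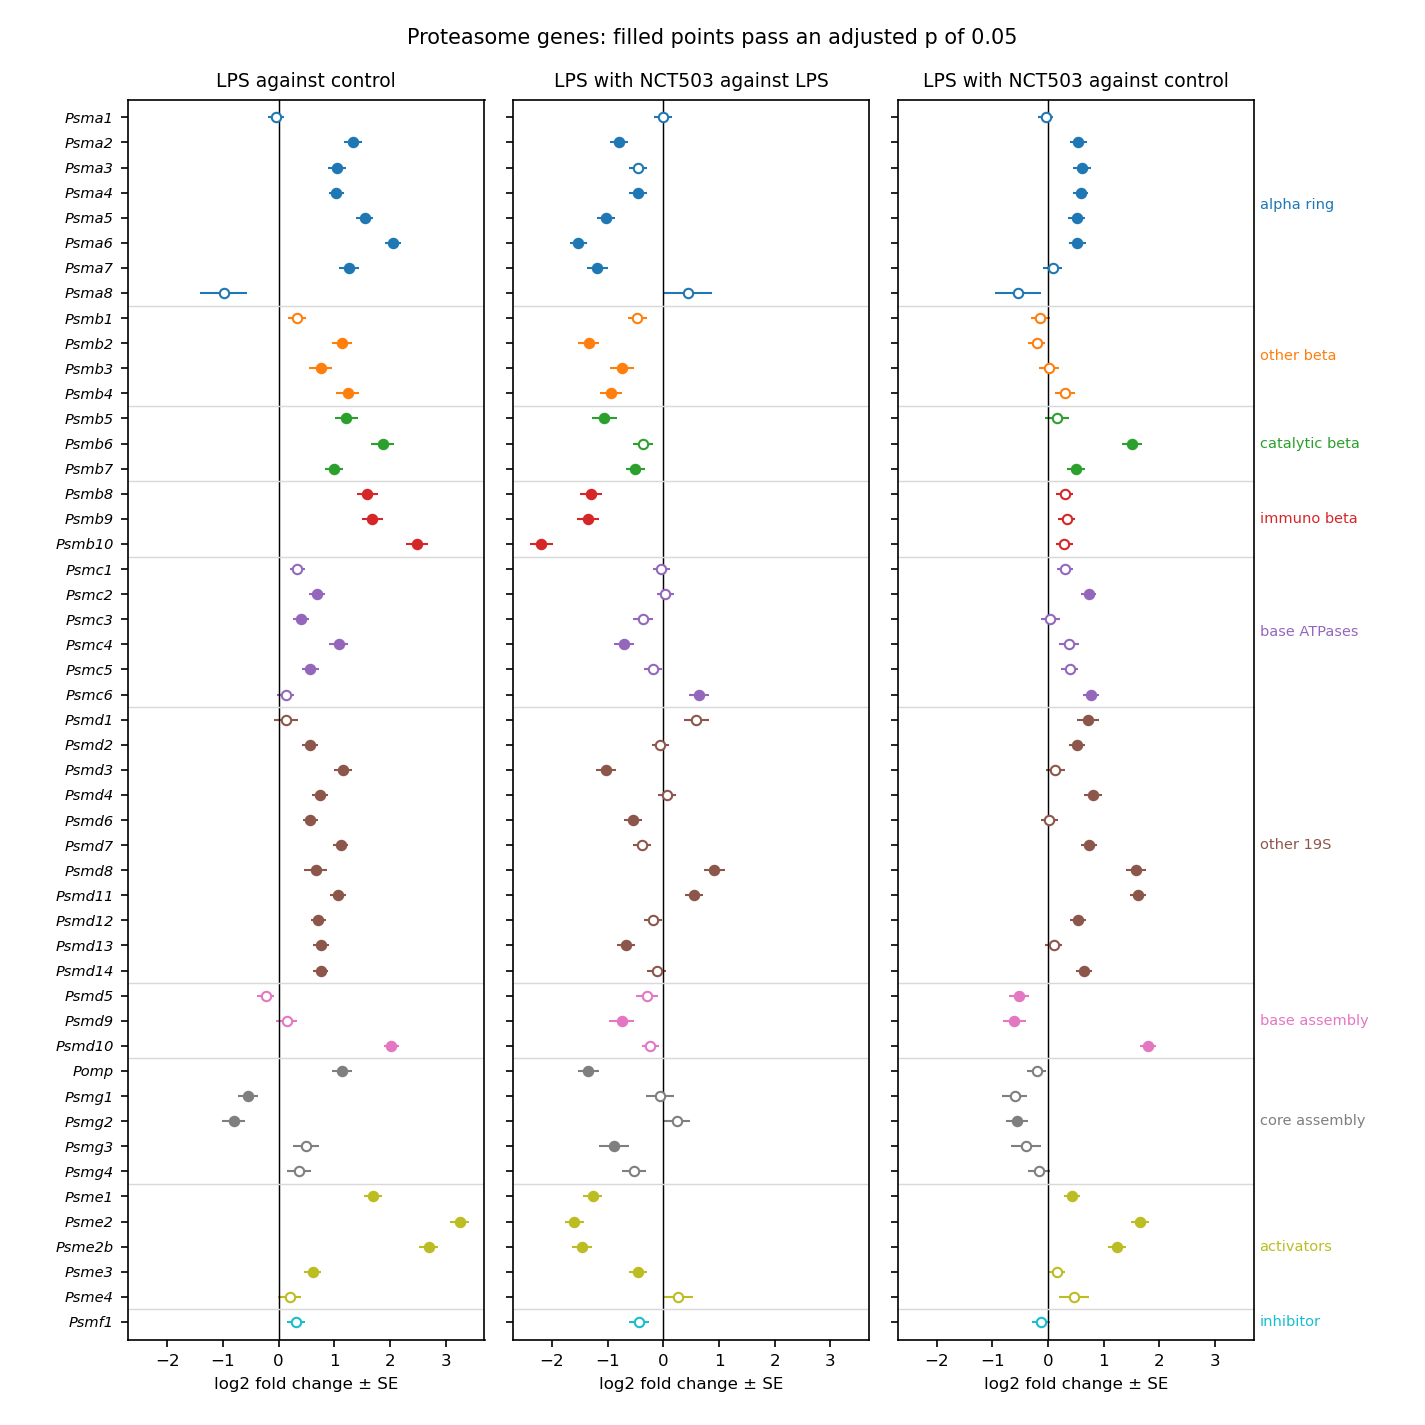
Log2 fold change ± SE of 49 proteasome genes (Psmc3ip left out), grouped by role, in the 3 comparisons; filled points passed an adjusted p of 0.05 in limma. Of the 18 core genes, immunoproteasome included, 16 lie right of 0 for LPS against control (all but Psma1 and Psma8) and 17 left of 0 for LPS with NCT503 against LPS (all but Psma8), while Psmc6, Psmd8 and Psmd11 lie right of 0 in that same panel.

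The counts depended on the scaling between libraries. With library totals alone the median of all genes moved by -0.63 for LPS against control, 0.20 for LPS with NCT503 against LPS and -0.43 for LPS with NCT503 against control (log2). Under that scaling the members called were 21 higher and 12 lower, 4 higher and 16 lower, and 6 higher and 13 lower in the same order of comparisons, and the medians of members less that of all genes were 0.72, -0.49 and 0.25, against 0.79, -0.53 and 0.27 with size factors. Under quantile normalization they were 27 higher and 2 lower, 4 higher and 21 lower, and 10 higher and 6 lower, and the median of the members less that of all genes was 0.56, -0.32 and -0.04. The share of all genes called was not counted under these other scalings, so these counts of members cannot be set against it.

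All 3 immunoproteasome subunits rose with LPS and fell with NCT503 added. Psmb10, the immunoproteasome counterpart of Psmb7, had 3697, 3568 and 2951 normalized reads in LPS with NCT503, 11524, 18998 and 16976 in LPS, and 2471, 2695 and 3172 in control libraries. Every LPS library lay above every library of the other groups, and the libraries with the inhibitor overlapped those of control. The log2 fold change was 2.49 ± 0.20 (SE) for LPS against control (adjusted p = 1.37e-06, limma) and -2.19 ± 0.21 for LPS with NCT503 against LPS (adjusted p = 1.11e-05).

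Psmb9, the counterpart of Psmb6 and encoded in the MHC locus on chromosome 17, had 3690, 3619 and 3081 normalized reads in LPS with NCT503, 6627, 10269 and 10100 in LPS, and 2524, 2700 and 3028 in control libraries. The 3 groups did not overlap. Its log2 fold change was 1.69 ± 0.19 with LPS (adjusted p = 2.12e-05, limma) and -1.35 ± 0.20 with the inhibitor added (adjusted p = 0.000297). The exons of Psmb9 overlap those of Tap1 on the opposite strand, and, with no strand setting known for the counting, reads of the more abundant Tap1 (29878 to 43709 normalized reads in LPS libraries) could count towards it.

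Psmb8, the counterpart of Psmb5, lies 9957 bases from Psmb9 and had 5865, 6574 and 5239 normalized reads in LPS with NCT503, 11225, 17191 and 15484 in LPS, and 4130, 4867 and 5409 in control libraries. LPS libraries were again highest and the libraries of the other groups overlapped. Its log2 fold change was 1.59 ± 0.19 with LPS (adjusted p = 3.34e-05, limma) and -1.30 ± 0.19 with the inhibitor added (adjusted p = 0.000325). In LPS with NCT503 against control none of the 3 was called by limma, edgeR or DESeq2, and 1 had an unadjusted p under 0.05 in limma. Their log2 fold changes there were 0.30 ± 0.16 for Psmb8, 0.33 ± 0.15 for Psmb9 and 0.29 ± 0.16 for Psmb10, and all 3 turned negative with library totals alone or quantile normalization.

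The constitutive catalytic subunits rose with LPS as well, and they responded unequally to the inhibitor. Psmb5, the chymotrypsin-like subunit, had 1982, 1310 and 1794 normalized reads in LPS with NCT503, 2750, 4424 and 3461 in LPS, and 1162, 1558 and 1837 in control libraries. Its log2 fold change was 1.22 ± 0.21 with LPS (adjusted p = 0.000617, limma) and -1.06 ± 0.22 with the inhibitor added (adjusted p = 0.00301). LPS libraries lay above all the others, which overlapped each other.

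Psmb6, the caspase-like subunit, had 8629, 9614 and 8270 normalized reads in LPS with NCT503, 8932, 13381 and 12291 in LPS, and 2388, 3313 and 3790 in control libraries. All 6 libraries with LPS lay above control, and the groups with and without the inhibitor overlapped. The log2 fold change was 1.87 ± 0.21 for LPS against control (adjusted p = 2.11e-05, limma), -0.37 ± 0.19 for LPS with NCT503 against LPS (adjusted p = 0.159) and 1.50 ± 0.18 for LPS with NCT503 against control (adjusted p = 0.000103). Without the first LPS library the fall with the inhibitor was called (adjusted p = 0.0267).

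Psmb7, the trypsin-like subunit, had 1411, 1563 and 1364 normalized reads in LPS with NCT503, 1751, 2238 and 2185 in LPS, and 864, 1050 and 1178 in control libraries, so that the 3 groups did not overlap. Its log2 fold change was 1.00 ± 0.17 with LPS (adjusted p = 0.000471, limma), -0.50 ± 0.17 with the inhibitor added (adjusted p = 0.0419) and 0.50 ± 0.16 for both against control (adjusted p = 0.0311). The fall with the inhibitor lost its call without LPS library 2 or 3 or without library 1 or 3 of LPS with NCT503 (adjusted p = 0.12 to 0.16). The call against control was lost without library 1 or 3 of LPS with NCT503 or control library 1 or 2 (adjusted p = 0.067 to 0.0981). Psmb7 shares exon sequence with Nek6 on the opposite strand.

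**Figure D2:**
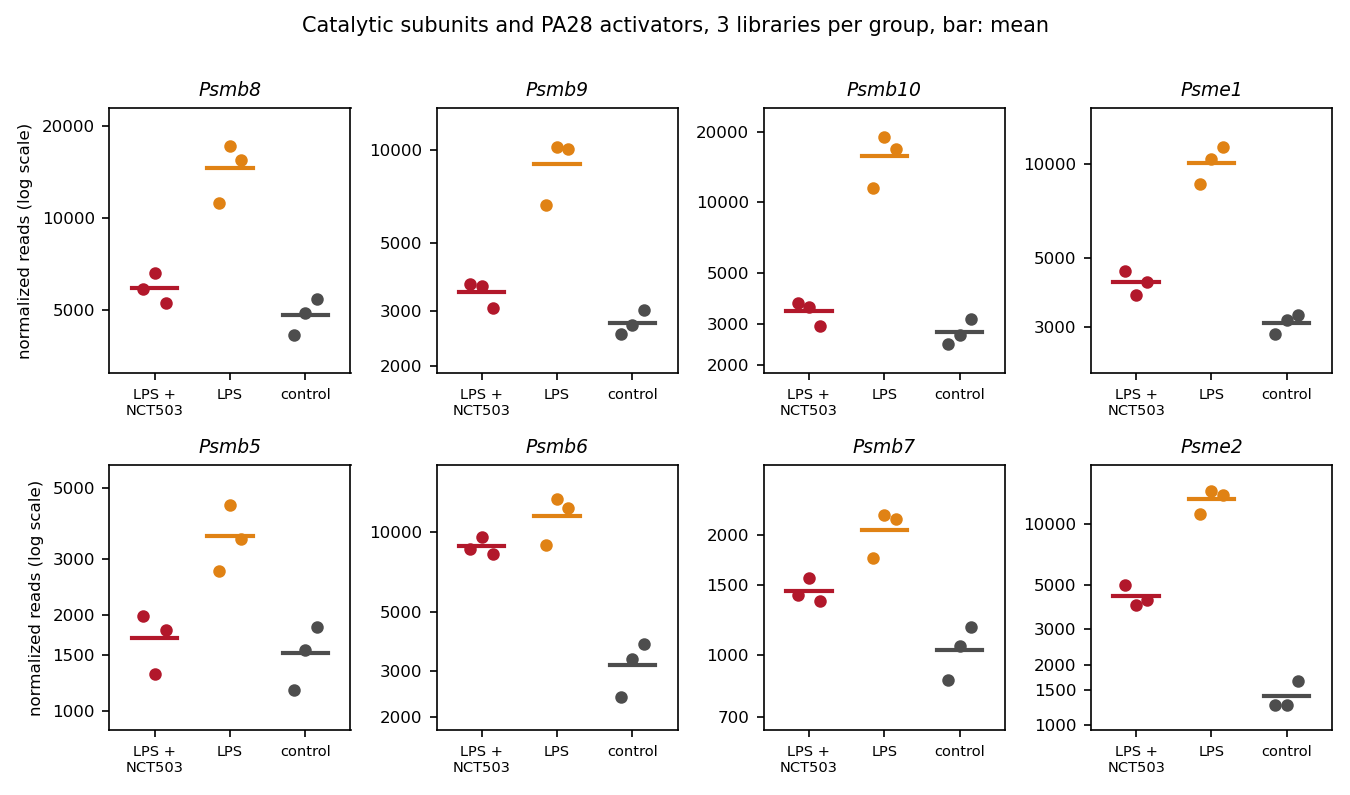
Normalized reads (log axis) in each library for the immunoproteasome subunits Psmb8, Psmb9 and Psmb10, their constitutive counterparts Psmb5, Psmb6 and Psmb7, and the PA28 subunits Psme1 and Psme2; bars are group means of 3 libraries. Psmb6 keeps 8270 to 9614 reads with the inhibitor, against 2388 to 3790 in control libraries, while Psmb10 has 2951 to 3697 reads with it and 11524 to 18998 in LPS libraries.

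The ratio of each immunoproteasome subunit to its counterpart is free of the scaling between libraries, and the 3 sites behaved differently. The log2 ratio of Psmb10 to Psmb7 was 1.39, 1.19 and 1.11 in LPS with NCT503, 2.72, 3.09 and 2.96 in LPS, and 1.51, 1.36 and 1.43 in control libraries. LPS libraries stood above the rest, with a difference of 1.49 for LPS less control and -1.69 for LPS with NCT503 less LPS. For LPS with NCT503 less control the difference was -0.20, and the groups overlapped.

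The log2 ratio of Psmb9 to Psmb6 was -1.23, -1.41 and -1.42 in LPS with NCT503, -0.43, -0.38 and -0.28 in LPS, and 0.08, -0.30 and -0.32 in control libraries. Here the libraries with the inhibitor stood below the rest, by -0.99 against LPS and -1.17 against control, while LPS and control overlapped (difference -0.19). The log2 ratio of Psmb8 to Psmb5 was 1.57, 2.33 and 1.55 in LPS with NCT503, 2.03, 1.96 and 2.16 in LPS, and 1.83, 1.64 and 1.56 in control libraries. It was higher in LPS than in control by 0.37 without overlap, and the group with the inhibitor overlapped both others, its second library being the highest of all 9.

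Each of the 5 differences without overlap had an exact two-sided permutation p of 0.1, the smallest that 3 against 3 libraries allow, and 0.18 after adjustment over the 9 ratios tested, so none could pass 0.05. Per kilobase of gene length, the 3 immunoproteasome subunits made up 41.8 ± 2.08% of the reads of the 6 catalytic subunits in LPS with NCT503, 61.1 ± 1.08% in LPS and 52.8 ± 2.78% in control libraries (SD, n = 3 each). The single values were 42.2, 43.6 and 39.5%, 60.0, 61.1 and 62.2%, and 56.0, 51.5 and 51.0% in the same order, without overlap between groups. Psmb6 weighs on this share, with 4721 ± 372 normalized reads per kilobase in LPS with NCT503 and 1690 ± 381 in control libraries. Means per kilobase of Psmb8, Psmb9 and Psmb10 were 2154, 947 and 1997 in LPS with NCT503, and 1755, 752 and 1630 in control libraries. The share below control thus does not mean fewer normalized reads of these 3.

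**Figure D3:**
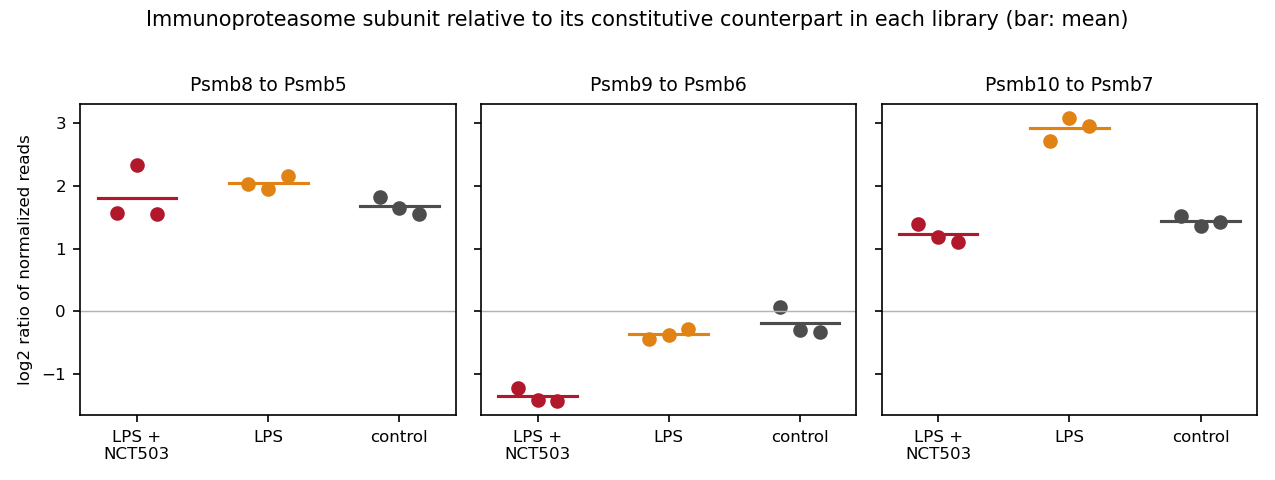
Log2 ratio of normalized reads of each immunoproteasome subunit to its constitutive counterpart in every library, with the mean of 3 libraries as a bar. Psmb10 to Psmb7 is highest in LPS libraries (2.72 to 3.09), and Psmb9 to Psmb6 is lowest with NCT503 (-1.42 to -1.23).

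The remaining core genes, which form the alpha ring and the non-catalytic part of the beta ring, mostly rose with LPS and fell with NCT503 too. Psma1, Psmb1 and the testis subunit Psma8 were called in neither comparison, and Psma3 was not called with NCT503. Of the 8 alpha genes, 6 rose with LPS and 5 fell with NCT503 added, where 20.8% and 15.5% of all genes did. Psma6 changed most, with 3048, 3364 and 2905 normalized reads in LPS with NCT503, 9114, 9281 and 8368 in LPS, and 1892, 2244 and 2349 in control libraries. The 3 groups did not overlap, and the log2 fold changes were 2.05 ± 0.15 with LPS (adjusted p = 5.63e-07, limma) and -1.52 ± 0.16 with the inhibitor added (adjusted p = 2.19e-05).

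Psma5 had 1564, 1460 and 1410 normalized reads in LPS with NCT503, 2721, 3122 and 3243 in LPS, and 919, 1049 and 1149 in control libraries, with log2 fold changes of 1.54 ± 0.15 with LPS and -1.03 ± 0.16 with the inhibitor (adjusted p = 6.8e-06 and 0.000471, limma). Psma7 had 1702, 2086 and 1597 in LPS with NCT503, 3228, 4668 and 4407 in LPS, and 1387, 1761 and 1953 in control libraries, with a log2 fold change of -1.18 ± 0.19 with the inhibitor (adjusted p = 0.000621, limma), which left it overlapping control. Psma1 is the exception among the alpha subunits made outside the testis. It had 1821, 1770 and 1666 in LPS with NCT503, 1802, 1860 and 1606 in LPS, and 1664, 1882 and 1883 in control libraries, with all 3 groups overlapping and log2 fold changes of -0.04 ± 0.14 with LPS and -0.00 ± 0.16 with the inhibitor. With library totals alone it was called lower with LPS (-0.74, adjusted p = 0.000872, limma), as with quantile normalization (-0.54, adjusted p = 0.00344).

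Psma3 and Psma4 remained above control with the inhibitor. Psma3 had 1963, 2038 and 1806 normalized reads in LPS with NCT503, 2433, 2842 and 2655 in LPS, and 1076, 1271 and 1495 in control libraries. Psma4 had 1750, 1639 and 1750 in LPS with NCT503, 2295, 2376 and 2363 in LPS, and 1079, 1120 and 1226 in control libraries. The fall of Psma4 against LPS was -0.45 (log2, adjusted p = 0.0427, limma). That call was lost without LPS library 2 or 3 or library 1 or 3 of LPS with NCT503 (adjusted p = 0.097 to 0.138). Against control the log2 fold changes with the inhibitor were 0.61 ± 0.16 for Psma3 and 0.59 ± 0.14 for Psma4 (adjusted p = 0.0122 and 0.00679, limma), and 5 of the 8 alpha genes were called higher there by 0.51 to 0.61. The share of all genes called higher in that comparison was 20.7%. Without control library 2, 1 of the 8 was called higher, as Psma2, Psma3, Psma5 and Psma6 were not (adjusted p = 0.0556 for Psma3 and 0.0634 for Psma6), and Psma5 was also lost without control library 1 or library 1 of LPS with NCT503 (adjusted p = 0.0516 to 0.0806 over the 3). With library totals alone 0 of the 8 were called higher and 1 lower, again against control.

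Of the 4 other beta genes 3 rose with LPS and the same number fell with NCT503, where 20.8% and 15.5% of all genes did. Psmb2 had 1095, 1198 and 1043 normalized reads in LPS with NCT503, 2212, 3330 and 3017 in LPS, and 1101, 1308 and 1457 in control libraries. Its log2 fold changes were 1.13 ± 0.18 with LPS and -1.34 ± 0.19 with the inhibitor (adjusted p = 0.000366 and 0.000218, limma). Psmb4 had 3158, 3652 and 2904 in LPS with NCT503, 4714, 7622 and 6533 in LPS, and 2119, 2655 and 3166 in control libraries, with log2 fold changes of 1.24 ± 0.20 and -0.94 ± 0.20 (adjusted p = 0.000462 and 0.0038). Psma2 of the alpha ring and Psmb3 of the beta ring rose with LPS by 1.34 and 0.76 and were lower with the inhibitor by -0.80 and -0.74 on the log2 scale (adjusted p = 3.64e-05, 0.0101, 0.00282 and 0.0209, limma). Psmb1, named here after its values were seen as was Psma1, was called by the main limma fit in no comparison, with 1275, 1460 and 1284 in LPS with NCT503, 1604, 1969 and 1998 in LPS, and 1231, 1514 and 1700 in control libraries. For LPS against control limma called it lower with library totals alone (-0.37, adjusted p = 0.0242). With the replicate number as a block it was called higher (0.33, adjusted p = 0.0352, limma). In LPS with NCT503 against control it was called lower with library totals alone and with quantile normalization (-0.59 and -0.43, adjusted p = 0.00607 and 0.0399, limma). With the inhibitor against LPS its log2 fold change was -0.47 ± 0.17 (adjusted p = 0.0551), and edgeR and DESeq2 called it lower (adjusted p = 0.0448 and 0.0377). The fall of Psmb3 was lost when any of 4 of the 6 libraries was left out, library 2 or 3 of LPS or 1 or 3 of LPS with NCT503 (adjusted p = 0.0759 to 0.0944), and its rise without LPS library 3 (adjusted p = 0.0568).

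Over the 18 core genes, immunoproteasome included, 15 were higher and 0 lower with LPS, and 0 were higher and 13 lower with NCT503 added. The shares over all genes were 20.8% higher and 21.6% lower with LPS, and 16.4% and 15.5% with NCT503 added. No core gene had the opposite call in edgeR or DESeq2 either, where 15 were higher with LPS in both and 15 were lower with the inhibitor in both. With library totals alone 13 were higher and 3 lower with LPS, and 10 were lower with the inhibitor.

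Of the 17 subunit genes of the 19S cap 14 rose with LPS (median log2 fold change 0.69, against 1.23 over the core). Most of these calls depended on the scaling. With library totals alone Psmc2, Psmc5, Psmd2, Psmd4, Psmd6, Psmd8, Psmd11, Psmd12, Psmd13 and Psmd14 were no longer called with LPS. Under that scaling Psmc1, Psmc3 and Psmc6 were called lower with LPS (log2 fold changes -0.36, -0.29 and -0.57, limma). Over all genes 20.8% were higher and 21.6% lower with LPS, and 16.4% and 15.5% with NCT503 added. With NCT503 added 3 of the 17 rose, a share close to that over all genes, 4 fell and 10 were not called (median -0.12 against -0.87). These counts were 1 higher and 1 lower without LPS library 3 or library 3 of LPS with NCT503, 1 and 3 without its library 1, and 4 and 6 without its library 2. The 3 that rose were the only members called higher by limma in that comparison. Psmd8, a lid subunit known in yeast as Rpn12, had 13726, 15432 and 13681 normalized reads in LPS with NCT503, 5779, 9020 and 8259 in LPS, and 3786, 4989 and 5722 in control libraries.

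The libraries with the inhibitor lay above all 6 others, and its log2 fold change was 0.92 ± 0.19 against LPS (adjusted p = 0.00325, limma) and 1.58 ± 0.17 against control (adjusted p = 4.8e-05). The rise with LPS alone, 0.66 ± 0.21 (adjusted p = 0.0216), lost its call without LPS library 2 or 3 or control library 1 (adjusted p = 0.0704 to 0.103) and turned to -0.03 with library totals alone and to -0.21 with quantile normalization. Per kilobase Psmd8 reached 4671 ± 327 normalized reads in LPS with NCT503, next to Psmb6 at 4721 ± 372, from which it did not differ beyond their spread. In LPS libraries it stood at 2514 ± 554 and in control libraries at 1581 ± 320 (SD, n = 3).

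Psmd11, a lid subunit known in yeast as Rpn6, had 2269, 1961 and 2183 normalized reads in LPS with NCT503, 1537, 1364 and 1480 in LPS, and 694, 680 and 713 in control libraries. The 3 groups were separate, with log2 fold changes of 1.07 ± 0.14 for LPS against control (adjusted p = 6.48e-05, limma), 0.55 ± 0.16 for LPS with NCT503 against LPS (adjusted p = 0.0217) and 1.62 ± 0.14 for LPS with NCT503 against control (adjusted p = 9.28e-06). The middle one lost its call without LPS library 2 or 3 or without library 1 or 3 of LPS with NCT503 (adjusted p = 0.0709 to 0.0914).

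Psmc6, an ATPase of the base, had 1421, 1296 and 1496 normalized reads in LPS with NCT503, 1040, 893 and 772 in LPS, and 790, 858 and 816 in control libraries. LPS and control overlapped (0.13 ± 0.15, adjusted p = 0.548, limma), and the inhibitor group lay above both, by 0.65 ± 0.18 against LPS (adjusted p = 0.015) and 0.77 ± 0.14 against control (adjusted p = 0.00155). The rise against LPS lost its call without LPS library 3 or without library 1 or 3 of LPS with NCT503 (adjusted p = 0.0535 to 0.0918).

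Other cap subunits fell with the inhibitor as the core did. Psmd3, a lid subunit, had 1701, 2166 and 1602 normalized reads in LPS with NCT503, 3317, 4309 and 3518 in LPS, and 1470, 1617 and 1881 in control libraries, with log2 fold changes of 1.16 ± 0.16 with LPS and -1.03 ± 0.18 with the inhibitor (adjusted p = 0.000112 and 0.00115, limma). Psmc4, a base ATPase, had 1837, 2219 and 1752 in LPS with NCT503, 2711, 3552 and 3200 in LPS, and 1217, 1489 and 1800 in control libraries, with 1.08 ± 0.18 and -0.70 ± 0.18 (adjusted p = 0.00041 and 0.00989). That fall of Psmc4 was not called without LPS library 3 or library 3 of LPS with NCT503 (adjusted p = 0.0501 to 0.0598).

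Psmc2, also a base ATPase, kept its LPS level with the inhibitor within the spread. It had 2772, 2921 and 2749 normalized reads in LPS with NCT503, 2966, 2598 and 2674 in LPS, and 1578, 1768 and 1754 in control libraries, with log2 fold changes of 0.69 ± 0.14 for LPS against control (adjusted p = 0.00172, limma), 0.04 ± 0.16 for LPS with NCT503 against LPS (adjusted p = 0.882) and 0.73 ± 0.14 for LPS with NCT503 against control (adjusted p = 0.00176). In LPS with NCT503 against control 10 of the 17 cap subunits were higher and 0 lower, as in edgeR and DESeq2. Of all genes 20.7% were called higher there by limma and 19.7% lower. With library totals alone 2 of the 17 cap subunits were higher and 2 lower.

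The other 11 cap subunits had log2 fold changes of 0.13 (Psmd1) to 1.12 (Psmd7) with LPS, and all but Psmc1 and Psmd1 were called. The call of Psmc3 (0.40, adjusted p = 0.0448, limma) was lost without any of 5 of the 6 libraries, all but LPS library 1 (adjusted p = 0.0527 to 0.139), and it turned to a call of -0.29 with library totals alone (adjusted p = 0.0314). With the inhibitor against LPS the 11 ran from -0.67 (Psmd13) to 0.59 (Psmd1), where Psmd13 and Psmd6 were called lower (adjusted p = 0.00893 and 0.0215, limma). Both calls were lost without library 3 of either group (adjusted p = 0.0534 to 0.1) and with library totals alone (adjusted p = 0.0634 and 0.204). That of Psmd6 was also lost without library 1 of LPS with NCT503 (adjusted p = 0.0546). Psmd13 overlaps exons of Sirt3, and Psmc3 those of Slc39a13, on the opposite strand.

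**Figure D4:**
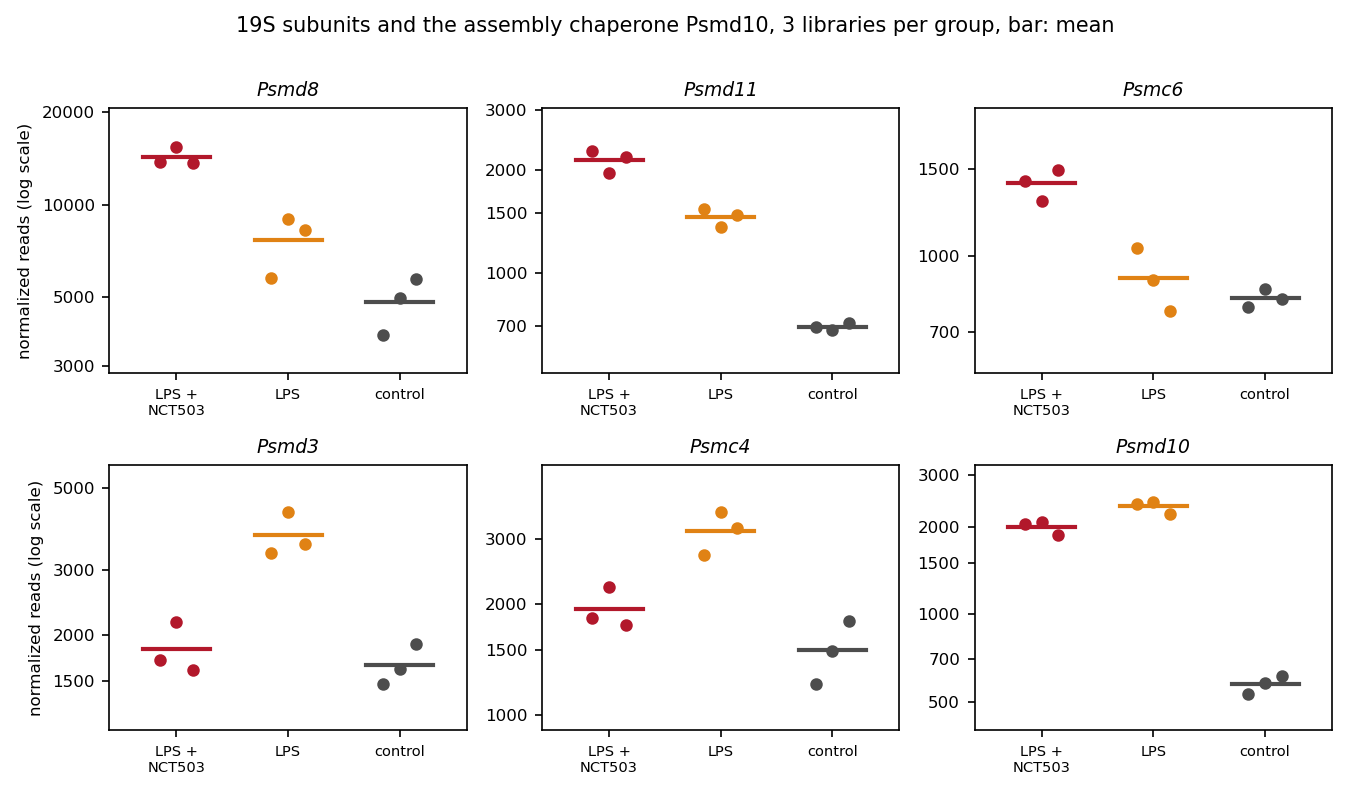
Normalized reads (log axis) in each library for the 19S subunits Psmd8, Psmd11, Psmc6, Psmd3 and Psmc4 and for the assembly chaperone Psmd10; bars are group means of 3 libraries. Psmd8, Psmd11 and Psmc6 are highest with NCT503, Psmd3 and Psmc4 are highest with LPS alone, and Psmd10 is high in both LPS groups (1875 to 2433 reads) and low in control libraries (534 to 611).

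The balance of core and cap was also read as shares of a library's reads, which is the scaling by library totals. The 18 core genes took 0.205 ± 0.0140% of all reads in LPS with NCT503, 0.362 ± 0.0342% in LPS and 0.204 ± 0.0123% in control libraries (SD, n = 3 each). The 17 cap genes took 0.215 ± 0.0129%, 0.173 ± 0.0075% and 0.174 ± 0.00181% in the same order. The core share was highest with LPS alone. The cap share was highest with the inhibitor, which rested on Psmd8. Without Psmd8 the other 16 cap genes took 0.147, 0.161 and 0.147% in LPS with NCT503, 0.157, 0.136 and 0.139% in LPS, and 0.147, 0.145 and 0.144% in control libraries, and the 3 groups overlapped.

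The ratio of core to cap reads, which is free of the scaling, was 0.974, 0.961 and 0.928 in LPS with NCT503, 1.79, 2.32 and 2.22 in LPS, and 1.11, 1.18 and 1.22 in control libraries, so the 3 groups were separate and the libraries with the inhibitor were the lowest. The order of the lower groups rested on Psmd8. Without it the ratio was 1.37, 1.38 and 1.32 in LPS with NCT503, 2.06, 2.85 and 2.71 in LPS, and 1.30, 1.43 and 1.50 in control libraries, and the inhibitor group overlapped control. Leaving out the immunoproteasome subunits instead, with Psmd8 kept, gave 0.695, 0.692 and 0.683, then 1.12, 1.35 and 1.29, then 0.754, 0.825 and 0.853, again without overlap. Without both, the ratio was 0.977, 0.991 and 0.973, then 1.29, 1.66 and 1.57, then 0.884, 0.997 and 1.04. There the inhibitor group again overlapped control. No test was run on these sums, as the members were chosen with results of these data known.

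**Figure D5:**
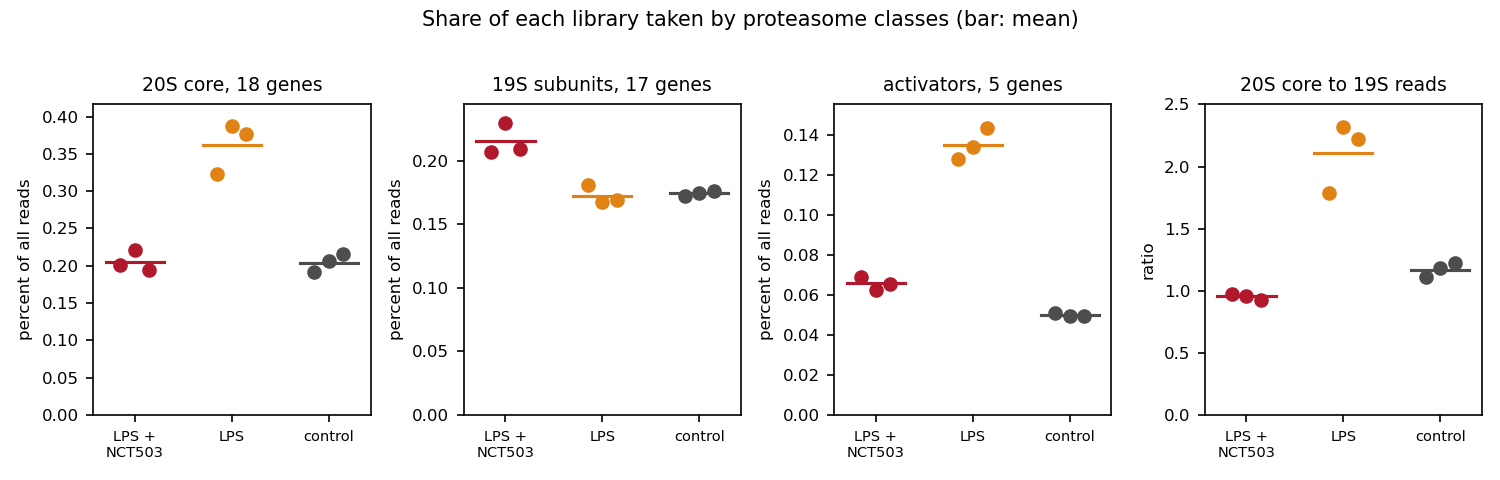
Percent of all reads taken by the 18 core genes, the 17 19S subunits and the 5 activator genes in each library, and the ratio of core to 19S reads, with means of 3 libraries as bars and all axes starting at 0. The core share is highest in LPS libraries (0.323 to 0.388%) and the 19S share is highest with NCT503 (0.207 to 0.230%), though without Psmd8 (0.147 to 0.161%) it overlaps that of LPS libraries (0.136 to 0.157%).

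Both genes of the PA28 activator rose with LPS and fell with the inhibitor. Psme2 (PA28 beta) had 4989, 3973 and 4186 normalized reads in LPS with NCT503, 11193, 14670 and 13951 in LPS, and 1264, 1261 and 1661 in control libraries. The groups were separate, and its log2 fold change of 3.25 ± 0.17 with LPS (adjusted p = 4.5e-08, limma) was the largest of the 50 members. With the inhibitor it was -1.60 ± 0.18 against LPS (adjusted p = 3.51e-05) and 1.66 ± 0.17 against control (adjusted p = 2.65e-05).

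Psme1 (PA28 alpha), whose gene lies 5912 bases from Psme2 on chromosome 14, had 4520, 3806 and 4168 normalized reads in LPS with NCT503, 8604, 10351 and 11296 in LPS, and 2847, 3162 and 3276 in control libraries. Its log2 fold changes were 1.70 ± 0.15 with LPS (adjusted p = 4.13e-06, limma) and -1.27 ± 0.17 with the inhibitor added (adjusted p = 0.000152). The rest above control, 0.43 ± 0.14 (adjusted p = 0.0356), was lost without control library 1, 2 or 3 or without library 1 or 3 of LPS with NCT503, and turned negative with library totals alone (-0.02) and quantile normalization (-0.08). Psme2b, a near-identical retrocopy of Psme2, had 3453, 3736 and 3245, then 7882, 10457 and 10531, then 1257, 1609 and 1574 in the same order of groups, and how reads were divided between it and Psme2 is uncertain.

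Psme3, the nuclear activator PA28 gamma, moved less, with 1539, 1744 and 1520 normalized reads in LPS with NCT503, 2153, 2286 and 2128 in LPS, and 1269, 1439 and 1612 in control libraries. Its log2 fold change was 0.61 ± 0.14 with LPS (adjusted p = 0.00497, limma) and turned to -0.09 with library totals alone. With the inhibitor it was -0.45 ± 0.16 (adjusted p = 0.0479), which was lost when any of 5 of the 6 libraries was left out (adjusted p = 0.0592 to 0.174), all but the second of LPS with NCT503.

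Psme4, the large activator PA200, had 1411, 684 and 1310 in LPS with NCT503, 1176, 717 and 863 in LPS, and 989, 735 and 662 in control libraries, with all groups overlapping and no call. Without the second library of LPS with NCT503 it was called higher against LPS (0.59, adjusted p = 0.0418, limma) and against control (0.79, adjusted p = 0.00319). Psmf1, an inhibitor of the core, had 486, 542 and 435 in LPS with NCT503, 598, 693 and 694 in LPS, and 475, 513 and 615 in control libraries, and passed in no comparison. Without the second library of LPS with NCT503 its fall against LPS was called (-0.52, adjusted p = 0.0337).

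The assembly factors did not move as a group. Pomp, the maturation protein that is built into the nascent core and degraded with its completion, followed the core genes, with 1803, 2158 and 1696 normalized reads in LPS with NCT503, 3806, 5552 and 5144 in LPS, and 1856, 2100 and 2577 in control libraries. Its log2 fold changes were 1.15 ± 0.18 with LPS (adjusted p = 0.000366, limma) and -1.35 ± 0.19 with the inhibitor (adjusted p = 0.000222). The libraries with the inhibitor overlapped control.

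The chaperones of the alpha ring were at far fewer reads. Psmg1 had 96.8, 158 and 110 normalized reads in LPS with NCT503, 111, 138 and 125 in LPS, and 174, 179 and 191 in control libraries, and LPS lowered it by -0.55 ± 0.19 (log2, adjusted p = 0.0334, limma), a call lost without any of 5 of the 6 libraries, all but LPS library 2 (adjusted p = 0.0522 to 0.121). Its partner Psmg2 had 103, 128 and 103 in LPS with NCT503, 92.2, 106 and 82.6 in LPS, and 149, 161 and 183 in control libraries, a fall of -0.81 ± 0.20 with LPS (adjusted p = 0.00698). Both LPS groups lay below control for either gene, and these were the 2 members called lower with LPS. Under quantile normalization neither was called (-0.28 for Psmg1 and -0.52 for Psmg2, adjusted p = 0.256 and 0.0626, limma). The 2 members called lower with LPS there were Psma1 and Psmc1 instead.

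Psmg3 had 61.2, 46.8 and 39.0 normalized reads in LPS with NCT503, 81.8, 94.1 and 93.1 in LPS, and 64.2, 52.5 and 75.3 in control libraries. It was called only with the inhibitor against LPS (-0.88 ± 0.27, adjusted p = 0.0252, limma), and lost that without LPS library 2 or 3 or library 3 of LPS with NCT503 (adjusted p = 0.0803 to 0.12). Psmg4 had 221, 277 and 227, then 261, 387 and 412, then 231, 256 and 332 in the same order, and passed in no comparison, but its fall with the inhibitor was called without LPS library 1 or library 2 of LPS with NCT503 (adjusted p = 0.023 to 0.0474). Without LPS library 1 its rise with LPS was called too (adjusted p = 0.0339).

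The chaperones of the 19S base, named among the Psmd genes, diverged. Psmd10, also known as gankyrin, had 2044, 2066 and 1875 normalized reads in LPS with NCT503, 2386, 2433 and 2215 in LPS, and 534, 580 and 611 in control libraries. Its log2 fold change was 2.03 ± 0.14 for LPS against control (adjusted p = 3.84e-07, limma) and 1.79 ± 0.14 for LPS with NCT503 against control (adjusted p = 5.11e-06), the largest of the members in the last comparison. Between the LPS groups it was -0.23 ± 0.16 (adjusted p = 0.289), and 0.01 with library totals alone.

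Psmd9 and Psmd5 were not called with LPS. Psmd9 had 389, 572 and 363 normalized reads in LPS with NCT503, 571, 869 and 775 in LPS, and 582, 654 and 748 in control libraries, a fall with the inhibitor of -0.75 ± 0.23 against LPS (adjusted p = 0.026, limma) and -0.60 ± 0.20 against control (adjusted p = 0.0352). Psmd5 had 357, 479 and 338 in LPS with NCT503, 531, 451 and 441 in LPS, and 499, 556 and 619 in control libraries, and fell only against control (-0.52 ± 0.18, adjusted p = 0.0421). The calls against control for Psmd5, Psmd9 and Psmg2, and that of Psmd9 against LPS, were each lost without library 1 or 3 of LPS with NCT503 and without library 2 or 3 of the other group (adjusted p = 0.0909 to 0.16).

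Genes that work with the proteasome but lie outside the name rule were taken from a list of 28, of which 27 were tested. With LPS 11 were higher and 5 lower, where 20.8% of all genes were higher and 21.6% lower, and with NCT503 added 10 were higher and 3 lower, where 16.4% and 15.5% were (median log2 fold change 0.27 against 0.08 over all genes). Zfand2a, also known as AIRAP, an arsenite-inducible proteasome-associated protein, had 5004, 5681 and 5232 normalized reads in LPS with NCT503, 2282, 2337 and 2219 in LPS, and 2023, 2597 and 2876 in control libraries, and rose by 1.22 ± 0.16 (log2, adjusted p = 0.000106, limma) with the inhibitor against LPS. Ubqln2, a ubiquilin that brings ubiquitinated proteins to the proteasome, had 1275, 1647 and 1187 in LPS with NCT503, 469, 577 and 498 in LPS, and 1086, 1265 and 1364 in control libraries, so it fell with LPS (-1.26 ± 0.15, adjusted p = 4.81e-05, limma), rose with the inhibitor against LPS (1.40 ± 0.19, adjusted p = 0.00015) and then overlapped control.

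Zfand5, an activator of the 26S proteasome, had 9889, 9367 and 10087 normalized reads in LPS with NCT503, 6196, 6662 and 6235 in LPS, and 2382, 2451 and 2171 in control libraries. Txnl1, a thioredoxin bound to the 19S cap, had 2716, 2587 and 2647, then 1743, 1705 and 1648, then 788, 944 and 1054 in the same order. For both the groups were separate, with LPS with NCT503 highest and control lowest, and with log2 fold changes against control of 2.07 ± 0.14 and 1.52 ± 0.15 (adjusted p = 1.32e-06 and 2.72e-05, limma). Against LPS the rise with the inhibitor was 0.62 ± 0.15 for Zfand5 and 0.64 ± 0.15 for Txnl1 (adjusted p = 0.00867 and 0.00756), and that of Zfand5 was not called without library 3 of LPS with NCT503 or LPS library 3 (adjusted p = 0.0524 and 0.0504).

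Midn and Uba1 fell with the inhibitor against LPS. Midn, a midnolin that carries proteins to the proteasome without ubiquitin, had 718, 1163 and 591 normalized reads in LPS with NCT503, 4803, 7215 and 6229 in LPS, and 2293, 2885 and 3028 in control libraries, and fell by 2.92 ± 0.25 on the log2 scale against LPS (adjusted p = 5.54e-06, limma) and by 1.78 ± 0.24 against control (adjusted p = 0.00019). Uba1, the main ubiquitin-activating enzyme, had 7674, 8380 and 7112 in LPS with NCT503, 16282, 17160 and 20032 in LPS, and 6714, 6999 and 7622 in control libraries, with 1.32 ± 0.15 for LPS against control and -1.20 ± 0.16 for LPS with NCT503 against LPS (adjusted p = 2.47e-05 and 0.000166).

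The genes that load peptides onto MHC class I also rose with LPS and fell with NCT503 in most cases. Of 15 such genes 10 rose and 1 fell with LPS, and 1 rose and 8 fell with NCT503 added. Their median log2 fold changes were 0.80 and -0.74, against -0.03 and 0.08 over all genes. Of all genes 20.8% were higher and 21.6% lower with LPS, and 16.4% and 15.5% with NCT503 added. Tap2, a subunit of the peptide transporter, had 3485, 3329 and 2740 normalized reads in LPS with NCT503, 9261, 12920 and 12505 in LPS, and 1754, 1980 and 2078 in control libraries, with log2 fold changes of 2.56 ± 0.17 and -1.85 ± 0.19 (adjusted p = 2.58e-07 and 1.73e-05, limma). Tap1 had 18146, 13289 and 14871 in LPS with NCT503, 29878, 43709 and 40693 in LPS, and 7764, 8233 and 9077 in control libraries. Tapbp, which bridges transporter and class I molecule, and the related Tapbpl showed -1.38 ± 0.19 and -1.09 ± 0.18 with the inhibitor (adjusted p = 0.000205 and 0.000754). All 4 were called higher in LPS with NCT503 than in control, by 0.71 to 1.16, though under quantile normalization Tap1, Tap2 and Tapbp were not (adjusted p = 0.145, 0.108 and 0.602), nor was Tap2 with library totals alone (adjusted p = 0.125).

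Of 14 transcription factors known for proteasome genes, 9 rose and 1 fell with LPS, and 1 rose and 6 fell with the inhibitor added. Of all genes 20.8% were higher and 21.6% lower with LPS, and 16.4% and 15.5% with the inhibitor added. Median log2 fold changes were 1.35 and -0.18 over the list, against -0.03 and 0.08 over all genes. Nfe2l1, which drives proteasome genes when the proteasome is inhibited, had 10357, 12069 and 10017 normalized reads in LPS with NCT503, 10232, 10776 and 9865 in LPS, and 4092, 5064 and 5606 in control libraries, so it was up in both LPS groups, which overlapped. Its relative Nfe2l2, the oxidative stress factor NRF2, had 12856, 7869 and 11571 in LPS with NCT503, 6852, 5043 and 6183 in LPS, and 3064, 2913 and 2506 in control libraries, and was the factor called higher with the inhibitor (0.82 ± 0.21, adjusted p = 0.0109, limma). The groups did not overlap, but the call was lost without library 1 or 3 of LPS with NCT503 (adjusted p = 0.055 and 0.0564).

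Irf1, Nlrc5 and Irf8, factors tied to the interferon response, were lower with the inhibitor than with LPS alone. Irf1 had 19858, 9749 and 13512 normalized reads in LPS with NCT503, 20122, 21735 and 25774 in LPS, and 1506, 1425 and 1457 in control libraries, with log2 fold changes of 3.94 ± 0.15 for LPS against control and -0.70 ± 0.24 for LPS with NCT503 against LPS (adjusted p = 3.7e-09 and 0.04, limma). The fall of Irf1 was lost in edgeR (adjusted p = 0.0712) and when any of 5 of the 6 libraries was left out, all but the first of LPS with NCT503 (adjusted p = 0.054 to 0.161). Nlrc5, the class I transactivator, had 5498, 2439 and 4265 in LPS with NCT503, 8405, 6898 and 7912 in LPS, and 1535, 1119 and 873 in control libraries, and fell by 1.00 on the log2 scale with the inhibitor (adjusted p = 0.0109). Irf8 had 6414, 6676 and 6311 in LPS with NCT503, 18032, 24180 and 29821 in LPS, and 6944, 7765 and 8455 in control libraries, the deepest fall of the list with the inhibitor (-1.86 ± 0.19, adjusted p = 2.31e-05). Nfkb1 and Stat3 stayed above control with the inhibitor, by 2.20 ± 0.16 and 2.18 ± 0.16 (adjusted p = 2.64e-06 and 2.46e-06). So did Irf1 (2.97 to 3.48 over the libraries left out) and Nlrc5 (1.49 to 2.08). Against LPS, Nfkb1 and Stat3 were lower too, by -0.82 to -0.58 and -0.69 to -0.47 over the libraries left out. The call of Stat3 there was lost without library 3 of either group (adjusted p = 0.0601 to 0.126, limma). The second library of LPS with NCT503 was the lowest of its group for Irf1 and Nlrc5.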

How the data were processed

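RNA-seq was measured in 9 libraries, 3 per group. Reads were aligned with TopHat2 to mm10, per the submitters' processing notes, while no source used here gives the counter or its strand setting. The deposited values are signal, that is reads divided by a size factor for each library. Whole reads were recovered from 100% of them (tolerance 0.001), and reads of the LPS libraries, which are in both deposited tables, were equal in 100% of shared values. The log2 fold changes and p-values of the authors' deposited table came from their own comparisons and were used for counts alone. 

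The 9 libraries were joined on 21434 genes (tables of 23001 and 22620) and scaled by DESeq2's median-of-ratios size factors over all 9, here called normalized reads. limma 3.58.1 (R 4.3.3, trended and robust) was run on log2(normalized reads + 1) of the 6 libraries compared, after dropping genes whose mean was under 1 normalized read in every group compared, with Benjamini-Hochberg adjustment over all genes and a threshold of 0.05. Fold changes are on that log2 scale and understate the change of low genes. Groups came from the labels. Catalytic ratios were tested by exact two-sided permutation. Alternatives were other scalings, pseudocounts and filters, edgeR 4.0.16 and DESeq2 1.42.0 on recovered reads, a replicate block and each library left out. The fit was tested on simulated data.

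Members and lists were chosen with earlier results of these data known. Named were the catalytic pairs, activators, inhibitor and assembly factors, from each other class the 2 called members that changed most in each direction and comparison, and from the other lists the 3 of smallest p and a few preset factors. Some genes that this rule names, and 2 marker lists, are not reported here. Psme2b, Psma1, Psmb1 and the members given as ends of a range or beside it (Psma2, Psmb3, Psmc1, Psmc3, Psmd1, Psmd6, Psmd7 and Psmd13) were chosen after their values were seen. The sums without Psmd8 were also chosen after seeing the data. Exon overlaps are from GENCODE M21, and promoters from RefSeq (GRCm38.p6).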

Additional observations from a re-analysis of the deposited data

How the results depend on the processing

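Counts of members called changed with the scaling and with single libraries. With library totals alone 21 members were higher and 12 lower for LPS against control, and 6 were higher and 13 lower for LPS with NCT503 against control. Quantile normalization gave 10 higher and 6 lower in that last comparison. All 9 libraries in 1 fit left 1 member lower with LPS. Leaving out 1 library at a time gave 32 to 36 higher and 1 to 2 lower for LPS against control, 1 to 5 higher and 15 to 30 lower for LPS with NCT503 against LPS, and 13 to 22 higher and 0 to 4 lower for LPS with NCT503 against control. The 15 came without library 3 of either group, the single higher call without LPS library 3 or library 1 or 3 of LPS with NCT503, the 5 without its library 2, the 13 without control library 2, and the 0 without library 1 or 3 of LPS with NCT503 or control library 2 or 3. Calls of Psmb8, Psmb9 and Psmb10 in the first 2 comparisons changed in none of these.

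Several log2 fold changes turned round. For LPS against control, library totals alone gave -0.0065 for Psmc2, -0.57 for Psmc6, -0.0332 for Psmd8, -0.55 for Psmd9, -0.0874 for Psme3, -0.50 for Psme4, -0.38 for Psmf1, -0.20 for Psmg3 and -0.33 for Psmg4, and quantile normalization gave -0.14 for Psmc6, -0.21 for Psmd8, -0.0449 for Psmd9 and -0.0515 for Psme4. For LPS with NCT503 against LPS, library totals alone gave 0.0128 for Psmd10 and 0.19 for Psmg1, and edgeR 0.0115 for Psmg1. Over the libraries left out Psmc2 ran from -0.0018 (without LPS library 2) to 0.0938, Psmg1 from -0.2576 to 0.0934 (without library 1 of LPS with NCT503; it was also above 0 without LPS library 2) and Nfe2l1 from -0.0139 (without library 2 of LPS with NCT503) to 0.1205. For LPS with NCT503 against control, library totals alone gave -0.37 for Psma7, -0.16 for Psmb10, -0.15 for Psmb4, -0.29 for Psmb5, -0.15 for Psmb8, -0.12 for Psmb9, -0.0748 for Psmc4, -0.32 for Psmd3, -0.0246 for Psme1, -0.29 for Psme3, -0.33 for Uba1 and -0.31 for Ubqln2. Quantile normalization there gave -0.25 for Psma7, -0.18 for Psmb10, -0.15 for Psmb4, -0.14 for Psmb5, -0.24 for Psmb8, -0.14 for Psmb9, -0.20 for Psmd3, -0.0824 for Psme1, -0.15 for Psme3, -0.49 for Uba1 and -0.15 for Ubqln2. Over the libraries left out the lowest values were -0.0563 for Psma7 and -0.0189 for Psmb5 (both without control library 1) and -0.0029 for Ubqln2 (without library 2 of LPS with NCT503), and the highest 0.1903, 0.3368 and 0.2331. The log2 ratio of Psmb8 to Psmb5 for LPS with NCT503 less control ran from -0.12 to 0.27 over the libraries left out. The cause was not tested.

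With the replicate number as a block 37 members were higher and 3 lower, 4 higher and 30 lower, and 20 higher and 3 lower in the 3 comparisons. The labels do not say that a number marks a shared animal or batch. Deviations from the group means correlated over 0.1 between same-numbered libraries in 3 of 9 pairs (-0.227 to 0.369), so the numbers were not taken to pair them.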
